A study of Mus musculus with 2 samples.

Results

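The genes described are 10 parts of the machinery that shows peptides to T cells: B2m, H2-K1, H2-D1, Tap1, Tap2, Tapbp, Psmb8, Psmb9, Nlrc5 and Cd74. They were taken by symbol from the 32285 features of the deposited matrices, and all 10 were found. Reporter-positive cells of mouse retina were sorted and sequenced in droplets, with transcripts counted as unique molecular identifiers (UMIs), in a study that, by its title, reassessed whether Müller cells (radial glia) turn into retinal ganglion cells in vivo. Each group is 1 library: Muller, read here as the test group, and MullerControl, the control group. Without replicates no test between groups was possible. The 95% intervals below cover counting error only and leave out the spread between mice, injections and sorts.

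Both groups were B6.Cg mice with the Gt(ROSA)26Sortm9(CAG-tdTomato)Hze allele, by which Cre recombinase switches on the red reporter tdTomato, aged 14 weeks at collection and 8 weeks after an adeno-associated virus (AAV) was injected. Cells positive for tdTomato were about 4.9% of the test and about 10% of the control suspension. The sort yielded 60000 and 120000 cells, of which 27000 per group were loaded. The cargo of the test virus, the promoter that drove expression and the number of mice pooled are not given in the sources used here. Both groups received a virus, so neither gives the level of these genes in an uninjected retina. A sort for the reporter also sets which cells are seen: shares of cells describe the sorted suspension, not the retina.

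Major histocompatibility complex (MHC) class I molecules sit on the surface of most nucleated cells and carry peptides from proteins made inside the cell. In a class I molecule a heavy chain, here H2-K1 or H2-D1, pairs with the common light chain β2-microglobulin, the product of B2m. Psmb8 and Psmb9 are catalytic subunits of the immunoproteasome that cuts those peptides, Tap1 and Tap2 form the transporter that moves them into the endoplasmic reticulum, and Tapbp (tapasin) holds the empty class I molecule at the transporter. Nlrc5 is the transcriptional coactivator of class I genes. Cd74, the invariant chain, belongs to the class II pathway, by which macrophages, dendritic cells and B cells present material taken up from outside. Interferons raise many of these genes, and neurons are known for low class I expression.

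Of the 10 genes, 7 lie on chromosome 17 in the GENCODE annotation of mouse genome GRCm38 (mm10). From the lowest coordinate these are Tapbp (33915899 to 33929292, plus strand), H2-K1 (33996017 to 34000347, minus strand), Psmb9 (34181987 to 34187764, minus strand), Tap1 (34187553 to 34197225, plus strand), Psmb8 (34197721 to 34201454, plus strand), Tap2 (34203527 to 34216321, plus strand) and H2-D1 (35262730 to 35267499, plus strand). B2m lies on chromosome 2 (122147686 to 122153083, plus strand) and Nlrc5 on chromosome 8 (94434356 to 94527272, plus strand). Psmb9 and Tap1 are transcribed away from each other and their annotated 5′ ends overlap. H2-K1 and H2-D1 are close paralogues, and so are the H2-Q and H2-T class I genes, so reads that fit several of them equally well may be missing from any of their counts; how such reads were treated is not given in the sources used here.

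Promoter sequences are shown for the 3 genes of the class I molecule itself and for the interval between Tap1 and Psmb9, because B2m and the heavy chains were all highest in microglia and next in Müller cells in the counts below, and are known to share a regulatory module. They are RefSeq sequences of build GRCm38.p6, read 5′ to 3′ on the gene's own strand and ending at the base before the annotated start. RefSeq entries were found for 7 of the 10 genes; Tap2, Nlrc5 and Cd74 are named only. The first of 2 entries is shown for H2-K1. Capitals mark matches on either strand to the interferon regulatory factor core AANNGAAA, the κB consensus, the TGACG core of the cyclic AMP response element and the CCAAT box, whose reverse complement is ATTGG. Adjoining κB matches overlap in H2-K1 and H2-D1.
B2m, chr2:122147507-122147686, plus strand: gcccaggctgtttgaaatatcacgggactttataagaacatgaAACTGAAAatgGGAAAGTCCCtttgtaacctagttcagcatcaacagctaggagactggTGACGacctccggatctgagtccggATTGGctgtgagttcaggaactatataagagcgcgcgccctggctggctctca
H2-K1, chr17:34000348-34000527, minus strand: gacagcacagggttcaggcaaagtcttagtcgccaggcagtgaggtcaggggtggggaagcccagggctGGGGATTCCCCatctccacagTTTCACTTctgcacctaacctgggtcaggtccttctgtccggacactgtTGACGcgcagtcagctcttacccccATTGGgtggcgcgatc
H2-D1, chr17:35262914-35263093, plus strand: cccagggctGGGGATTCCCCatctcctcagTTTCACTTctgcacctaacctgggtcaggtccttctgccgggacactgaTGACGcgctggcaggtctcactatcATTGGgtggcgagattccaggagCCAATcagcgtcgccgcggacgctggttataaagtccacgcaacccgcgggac
Tap1, chr17:34187331-34187555, plus strand: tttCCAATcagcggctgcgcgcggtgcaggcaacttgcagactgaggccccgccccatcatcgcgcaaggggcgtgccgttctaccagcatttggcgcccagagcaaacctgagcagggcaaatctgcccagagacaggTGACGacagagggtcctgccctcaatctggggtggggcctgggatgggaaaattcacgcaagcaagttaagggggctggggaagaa

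In the promoters of B2m, H2-K1 and H2-D1 a κB match and an interferon regulatory factor match were followed, closer to the start, by TGACG and then ATTGG, with 25 bases from the first base of one to that of the other in each of the 3. These letters resemble the X2 and Y boxes of the module that the RFX, CREB and NF-Y factors bind and through which Nlrc5 acts, as background. Over the 32851 RefSeq windows of the same length (250 bases before to 50 after a start), the interferon regulatory factor core was present in 23.9%, the κB consensus in 8.46%, TGACG in 20.8% and the CCAAT box in 37.4% on either strand. TGACG followed by ATTGG on the gene's strand with 15 to 30 bases between their first bases was present in 103 windows, or 0.314%. Of the genes in the pathway lists described below, the class I chain genes H2-M3 and H2-Q7 and the class II gene H2-Aa also held that pair. Tap1 and Psmb9 each held TGACG and a CCAAT box on either strand but not the pair, Tapbp held CCAAT boxes alone, and Psmb8 held no match to any of the 4 motifs. A match describes letters in this window and is not evidence that a factor binds there.

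Filtering kept 10757 Muller and 9538 MullerControl cells, with medians of 1495 and 1587 UMIs per cell. Cells were gated one by one on marker genes. At least 6 of 18 Müller markers such as Glul, Rlbp1 and Slc1a3 gave 946 and 578 Müller-gated cells, and at least 5 of 20 microglia and macrophage markers such as C1qa, Cx3cr1 and Csf1r gave 108 and 165 microglia-gated cells. Rods numbered 4239 and 6331, cones 323 and 829, bipolar cells 2887 and 904, and amacrine cells 346 and 74. The limits were set after the marker counts had been seen. In the 2 libraries 128 and 60 cells lay exactly at the Müller limit and 183 and 63 lay 1 marker under it, against 4 and 4 at the microglia limit and 1 and 6 under it. Clusters of the same name held 97.6% and 97.8% of the Müller-gated cells and 97.2% and 99.4% of the microglia-gated cells. The clusters were built from the same cells and named by the same marker lists, so this is not an independent check of the gates. The libraries shared 40 of their cell barcodes. In these sorted suspensions the Müller-gated cells of the Muller library were shallower, with a median of 1719 UMIs against 2217, and carried more of the nuclear transcript Malat1, at a median of 14.7% of UMIs against 10.2%.

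The light chain gene B2m was highest in microglia, lower in Müller cells and lowest in neurons. In microglia-gated cells it stood at 2164.5 counts per 1000000 UMIs (CPM; 95% interval 2019 to 2318) in the Muller library and at 2887 CPM (2773 to 3006) in the MullerControl library. Müller-gated cells had 186 CPM (168 to 206) and 301 CPM (275 to 328). Rods had 11.8 and 4.88 CPM, bipolar cells 6.99 and 3.70 CPM, cones 6.67 and 3.31 CPM, and amacrine cells 13.5 and 23.1 CPM. Microglia were thus 11.6-fold (10.3 to 13.2) and 9.61-fold (8.73 to 10.6) above Müller cells, which were 15.8-fold (12 to 21) and 61.5-fold (45.5 to 85.2) above rods. The intervals of microglia and Müller cells overlapped neither each other nor those of any neuron class in either library, while cones and bipolar cells could not be ordered in either. Microglia were 1.00% and 1.73% of the kept cells and held 55.4% and 77.2% of all B2m UMIs of kept cells.

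The heavy chain genes followed the same order at the top but reached further into the neurons. H2-K1 stood at 1031 and 1151 CPM in microglia, 289 (266 to 314) and 350 CPM (323 to 380) in Müller cells, and 23.2 and 17.5 CPM in rods. H2-D1 stood at 2742 and 2693 CPM in microglia, 232 (211 to 254) and 256 CPM (232 to 281) in Müller cells, and 62.7 and 52.3 CPM in rods. The gap between Müller cells and rods was 12.5-fold (10.2 to 15.3) in the Muller library and 20-fold (16.8 to 23.9) in the MullerControl library for H2-K1 and 3.70-fold (3.2 to 4.28) and 4.88-fold (4.28 to 5.57) for H2-D1. Amacrine cells, interneurons of the inner retina, came next to Müller cells for H2-D1, with 169 (148 to 193) and 179 CPM (137 to 229), so that Müller cells exceeded them by 1.37-fold (1.17 to 1.61) and 1.43-fold (1.09 to 1.89). For H2-K1 the next class after Müller cells was cones in the Muller library (54.5 CPM) and amacrine cells in the MullerControl library (80.9 CPM, from 28 UMIs).

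The immunoproteasome subunit genes also stepped down from microglia to Müller cells to neurons. Psmb8 stood at 435 and 408 CPM in microglia, 75.0 and 88.9 CPM in Müller cells, and 3.29 and 1.80 CPM in rods, the last from 17 UMIs in each library. Psmb9 stood at 142 and 130 CPM in microglia, 24.7 and 32.0 CPM in Müller cells, and 1.55 and 0.425 CPM in rods, from 8 and 4 UMIs. Microglia exceeded Müller cells by 5.80-fold and 4.59-fold for Psmb8 and by 5.77-fold and 4.08-fold for Psmb9. No Psmb9 UMI was seen in 346 and 74 amacrine cells, where 3 counts would be 2.25 and 8.66 CPM.

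**Figure D1:**
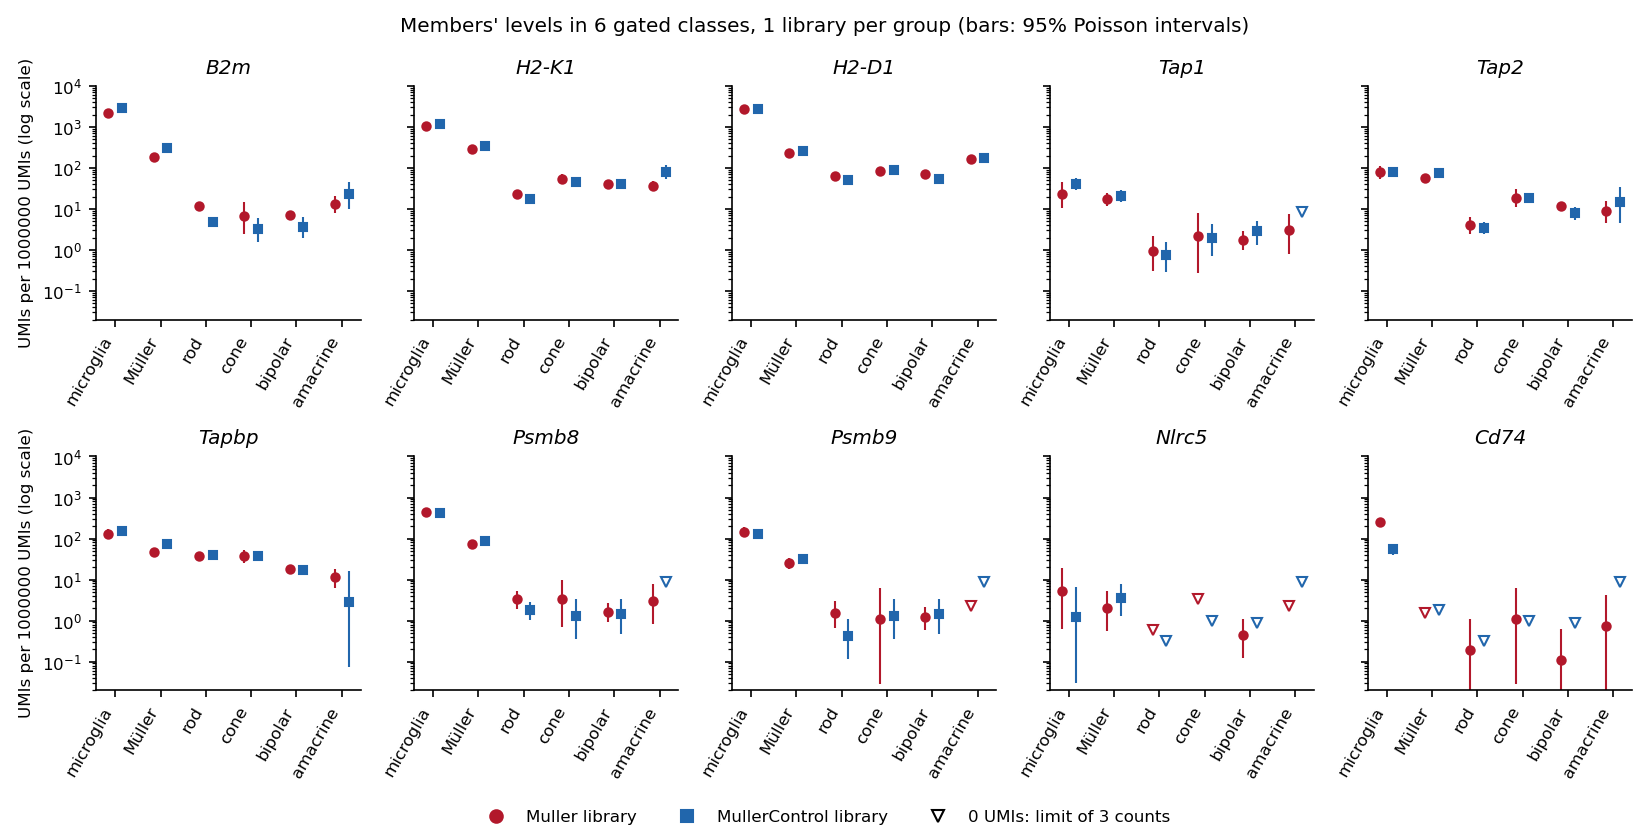
Level of each gene in CPM (log axis) in 6 gated classes, for the Muller (circles) and MullerControl (squares) libraries; bars are 95% Poisson intervals and open triangles mark 0 UMIs at the limit of 3 counts. B2m, H2-K1, H2-D1, Psmb8 and Psmb9 step down from microglia to Müller cells to neurons, Tapbp declines in small steps, and Cd74 is at 0 in Müller cells.

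Microglia and Müller cells were closer to each other in the transporter genes. Tap1 stood at 23.7 (10.8 to 45) and 41.1 CPM (28.4 to 57.4) in microglia and 17.1 (11.8 to 23.9) and 20.8 CPM (14.4 to 28.9) in Müller cells. Tap2 stood at 79.1 and 78.5 CPM in microglia and 56.9 and 73.5 CPM in Müller cells. The microglial excess over Müller cells was 1.39-fold (0.897 to 2.10) and 1.07-fold (0.779 to 1.45) for Tap2, intervals that include equality. For Tap1 it was 1.39-fold (0.585 to 2.95) and 1.98-fold (1.20 to 3.27). Müller cells still exceeded rods, by 14.0-fold and 21.0-fold for Tap2 and by 17.7-fold and 27.9-fold for Tap1.

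Tapbp differed less between glia and rods than the other measured class I genes did. It stood at 132 and 156 CPM in microglia, 47.3 (38.2 to 57.9) and 72.3 CPM (60.1 to 86.4) in Müller cells, 38.5 and 39.4 CPM in rods, 36.7 and 37.8 CPM in cones, 17.6 and 17.3 CPM in bipolar cells, and 11.2 and 2.89 CPM in amacrine cells, the last from 15 and 1 UMIs. Microglia exceeded rods by 3.42-fold (2.46 to 4.69) and 3.96-fold (3.21 to 4.85), against 43.7-fold and 51.5-fold for H2-D1 and 19.4-fold and 22.4-fold for Tap2. Müller cells exceeded rods by 1.23-fold (0.950 to 1.58) in the Muller library and 1.84-fold (1.48 to 2.26) in the MullerControl library, so in the first the 2 classes could not be ordered. Of all Tapbp UMIs, 8.32% and 15.7% were in microglia. Across the 12 sums of 6 classes in 2 libraries, log2 levels (10 CPM added) of B2m had a Pearson correlation of 0.988 with Psmb8, 0.985 with Psmb9, 0.976 with H2-K1, 0.956 with H2-D1, 0.900 with Tap2 and 0.791 with Tapbp, as a description of sums that share libraries.

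Nlrc5 was nearly absent from the counts, with 19 and 10 UMIs in all deposited barcodes, each in a cell of its own. Müller-gated cells held 4 and 6 of these UMIs, microglia-gated cells 2 and 1, and rods 0 and 0. At 2.01 (0.548 to 5.15) and 3.56 CPM (1.31 to 7.74) in Müller cells, no difference between libraries or from microglia was detectable at this depth.

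Shares of cells told the same order. Each cell was thinned to 1000 UMIs, and cells below that depth were dropped: 695 and 441 Müller cells, 97 and 157 microglia and 2185 and 4409 rods remained. A B2m UMI was then present in 13.5% (11.1 to 16.3) and 20.2% (16.5 to 24.2) of Müller cells, 87.6% and 87.3% of microglia, and 0.778% and 0.454% of rods. Before thinning the Müller shares were 23.7% and 43.2%. For H2-K1 the thinned shares were 22.2% and 23.1% of Müller cells and 2.06% and 1.59% of rods. For H2-D1 they were 17.6% and 19.7% of Müller cells and 6.36% and 4.85% of rods.

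At 1000 UMIs, 2 or more of the 9 class I genes were seen together in 16.7% (14.0 to 19.7) and 21.5% (17.8 to 25.7) of Müller cells, 91.8% and 94.3% of microglia, and 0.687% and 0.476% of rods. Shares of 2.34% and 4.05% were seen in amacrine cells, the highest among neurons. At least 4 genes were seen in 37.1% and 33.1% of microglia but in 0.719% and 1.36% of Müller cells. The highest number in 1 Müller cell was 5 in either library. No single Müller cell dominated a gene: the highest held 8 and 9 UMIs of B2m, 20 and 16 of H2-K1 and 14 and 13 of H2-D1, at most 3.48% of that gene's UMIs in the gate.

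**Figure D2:**
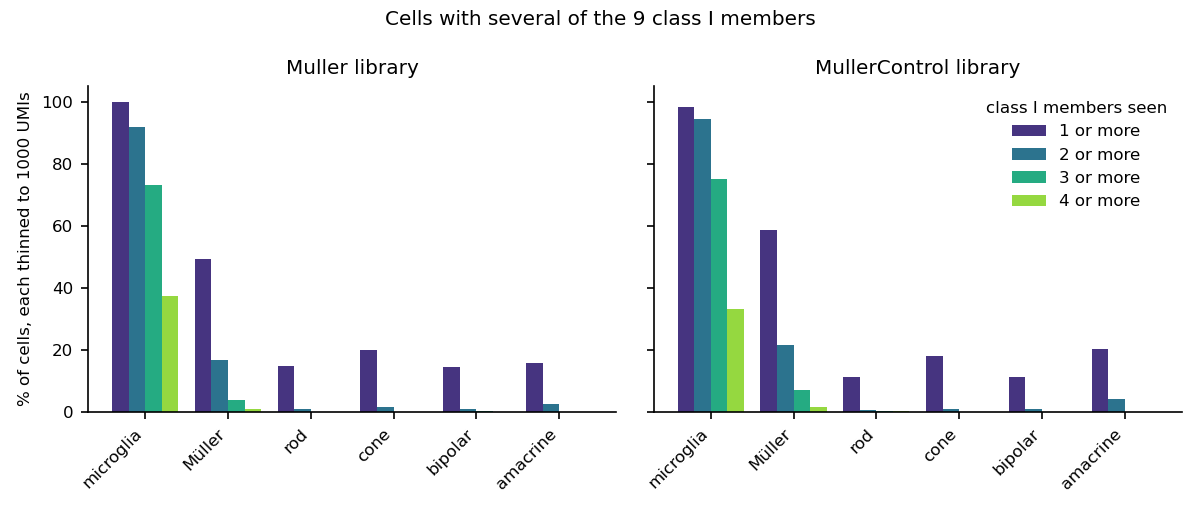
Percent of cells of each gated class, thinned to 1000 UMIs, in which at least 1, 2, 3 or 4 of the 9 class I genes had a UMI, by library. Nearly every microglia-gated cell shows 2 or more, about 1 Müller-gated cell in 5 or 6 does, and neurons rarely do.

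Because microglia carried so much of these transcripts, their markers were read in the Müller gate. Of 20 microglia markers, 8 and 13 had at least 1 UMI there, and their sum was 50.8 and 58.1 CPM against 58221 and 56066 CPM in microglia. Cx3cr1, Tmem119, Csf1r and 9 others were at 0 in the Muller library, and Fcer1g, Fcrls, Siglech and 4 others in the MullerControl library. C1qa stood at 10.1 and 1.78 CPM in the Müller gate and at 10235 and 9587 CPM in microglia. At the microglial ratio of B2m to C1qa these amounts would come with 2.13 and 0.536 CPM of B2m, where 186 and 301 CPM were measured. Leaving out Müller-gated cells with any microglia marker UMI left the B2m ratio between libraries within its interval.

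In Müller-gated cells all 8 genes with at least 20 UMIs over both libraries were lower in the Muller than in the MullerControl library, with a median log2 ratio of -0.32 against -0.03 over all 11046 genes measured in that gate. None was at least 1.5-fold higher, against a background of 6.94% of measured genes. B2m and Tapbp, 2 of the 8, were at least 1.5-fold lower, against a background of 6.02%. B2m was lower by 1.61-fold (log2 ratio -0.69, interval -0.89 to -0.49) and Tapbp by 1.52-fold (-0.61, -1.02 to -0.21). H2-K1 had a log2 ratio of -0.28 (-0.44 to -0.11) and H2-D1 of -0.14 (-0.33 to 0.05). With cells thinned to 1000 UMIs B2m was at -0.87 (-1.27 to -0.48), Tapbp at -0.85 (-1.66 to -0.06), H2-D1 at -0.14 and H2-K1 at -0.02 (-0.35 to 0.31), so the difference in H2-K1 was not detectable at equal depth. Tap1, Tap2, Psmb8 and Psmb9 lay between -0.25 and -0.37 with intervals that include 0. After thinning Tap2 was at -0.57 (-1.32 to 0.19), Psmb8 at -0.66 (-1.35 to 0.04) and Psmb9 at -0.96 (-2.205 to 0.22). These values lie further below 0, again with intervals that include 0. Tap1, under 20 UMIs after thinning, was then seen in 14 of 695 and 4 of 441 cells, the opposite direction. These values came with the difference in depth and in Malat1 given above, and with bipolar markers at 787 CPM in the Müller gate of the Muller library against 337 CPM; the part of either in the ratios was not tested.

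The Müller gate drew on 3 clusters, and the libraries differed in how much of it each supplied. Cluster 13, the deepest, had medians of 4154 and 5078 UMIs and held 21.6% and 40.1% of the gated cells. Cluster 8, with medians of 1784 and 1820 UMIs and Malat1 at 24% and 14%, held 47.4% and 24.1%. Cluster 5, with medians of 747 and 964 UMIs and Malat1 at 0.984% and 0.369%, held 28.6% and 33.6%. Clusters were built from the genes of the same cells and are used here to hold cell make-up closer to equal, not as types.

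Within cluster 13 the heavy chain genes differed by less than their counting intervals. H2-K1 stood at 430 (388 to 476) and 434 CPM (397 to 473) and H2-D1 at 330 (293 to 370) and 309 CPM (278 to 342), log2 ratios of -0.01 (-0.21 to 0.18) and 0.10 (-0.13 to 0.32). B2m stood at 282 (247 to 319) and 330 CPM (298 to 364) there, and its log2 ratio was -0.23 (-0.47 to 0.01). Tapbp was at -0.46 (-1.01 to 0.04), and no gene reached 1.5-fold. In cluster 8 H2-K1 and H2-D1 were at 0.10 and 0.03, whereas B2m stood at 86.4 (67.4 to 109) and 200 CPM (149 to 262), which is -1.22 on the log2 scale (-1.75 to -0.66). Tapbp (-0.82, -1.55 to -0.01) and Tap2 (-0.72, -1.57 to 0.26) also passed 1.5-fold there, so 3 of 7 measured genes were lower. The share of all genes past 1.5-fold was not computed within clusters, so this count has no background beside it. In cluster 5 H2-K1, H2-D1 and Psmb8 were higher in the Muller library, at 0.46 (-0.18 to 1.16), 0.59 (-0.05 to 1.29) and 0.82 (0.03 to 1.72), and B2m was at -0.44 (-0.99 to 0.10). The sign of the point values for H2-K1 and H2-D1 over the whole gate was not that within the clusters, except for H2-K1 in cluster 13. Every one of these cluster intervals includes 0, in cluster 8 at -0.37 to 0.65 and -0.51 to 0.66, so counting error leaves their signs open. B2m was below 0 in all 3, with an interval that excludes 0 in cluster 8 alone.

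**Figure D3:**
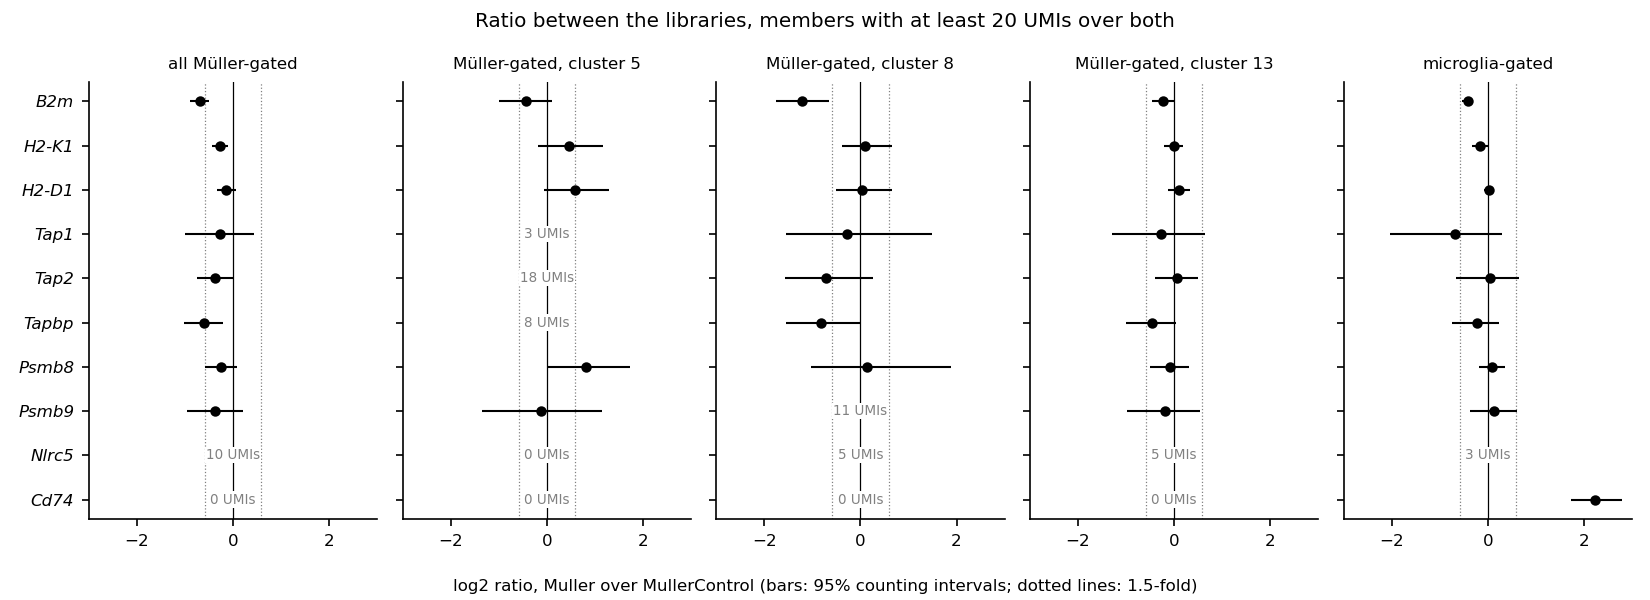
Log2 ratio, Muller over MullerControl, of each gene in the Müller gate, in the Müller-gated cells of clusters 5, 8 and 13, and in the microglia gate; bars are 95% counting intervals, dotted lines mark 1.5-fold, and genes with under 20 UMIs are given by their UMI number. B2m lies left of 0 in all 5 panels, H2-K1 and H2-D1 lie near 0 in clusters 8 and 13, and Cd74 in microglia is the only gene right of the dotted line by its whole interval.

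Other genes of the pathway were read from fixed lists. Of 8 measured class I chain genes in the Müller gate, 0 were 1.5-fold higher and 2 were lower: H2-Q7 (log2 ratio -1.15, from 17 and 33 UMIs) and H2-Q4 (-0.78). H2-T23, a chain recognised by natural killer receptors, was at -0.21 and the neonatal Fc receptor Fcgrt at -0.41. Of the 8 genes of peptide loading and trimming none passed 1.5-fold in either direction, with calreticulin (Calr) at -0.45 (-0.68 to -0.22), calnexin (Canx) at -0.10, the oxidoreductase Pdia3 at 0.03 and the trimming peptidase Erap1 at 0.03. Of 5 inducible proteasome and activator genes 1 was lower, Psme3 (-0.76), while the activator subunits Psme1 and Psme2 were at -0.46 and -0.31. Of the 3 constitutive catalytic subunits, which the immunoproteasome subunits replace, Psmb7 was lower (-0.70) and Psmb5 and Psmb6 were at -0.08 and -0.26.

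None of the 24 measured regulators differed by 1.5-fold in the Müller gate. Of the 24, 10 were above 0 and 14 below, with a median log2 ratio of -0.13 against -0.03 over all measured genes. Irf1, an interferon-induced transcription factor, was at 30.7 and 42.1 CPM (log2 ratio -0.45), Rfx5 at -0.20, Creb1 at -0.22 and Nfyb at -0.57 (-1.04 to -0.11). The highest was Ifngr2, at 0.48 (-0.06 to 1.05). In the interferon response list 0 of 14 measured genes were 1.5-fold higher and 8 were lower, with a median log2 ratio of -0.77. Among them were Rsad2 (-1.80), Gbp2 (-1.43), Ifit1 (-1.31), Igtp (-1.22) and Ifit3 (-1.12), whereas Ifitm3 and Ifi27 were at -0.08 and -0.03. The class I members thus differed less between the libraries than these genes did, as medians of -0.32 and -0.77; that difference was not tested.

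Müller-gated cells thinned to 1000 UMIs were then split by how many of the 15 interferon response genes, none of them a member, had a UMI. In the Muller library H2-K1 stood at 177 CPM (138 to 224) in the 395 cells with none, 368 CPM (287 to 464) in the 193 with 1 and 542 CPM (412 to 701) in the 107 with 2 or more. B2m stood at 104 (74.5 to 141), 192 (135 to 264) and 234 CPM (151 to 345), and H2-D1 at 152 (116 to 196), 249 (183 to 330) and 383 CPM (275 to 520). The intervals of the lowest and the highest bins did not overlap for any of these 3 genes. Psmb8, at 43.0, 51.8 and 93.5 CPM, had overlapping intervals, and Tap2 (48.1, 57.0 and 28.0 CPM) and Tapbp (32.9, 57.0 and 28.0 CPM, the last from 3 UMIs each) were not higher in the highest bin than in the lowest. Tap1 and Psmb9 had at most 6 UMIs in a bin. In the MullerControl library, with 218, 136 and 87 cells, H2-K1 stood at 275, 301 and 310 CPM, B2m at 266, 250 and 322 CPM, and H2-D1 at 211, 213 and 333 CPM, with overlapping intervals. The share of cells from cluster 13 moved with the bins, at 21.0%, 36.3% and 47.7% for Muller and at 47.2%, 55.9% and 60.9% for MullerControl; its part was not tested.

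**Figure D4:**
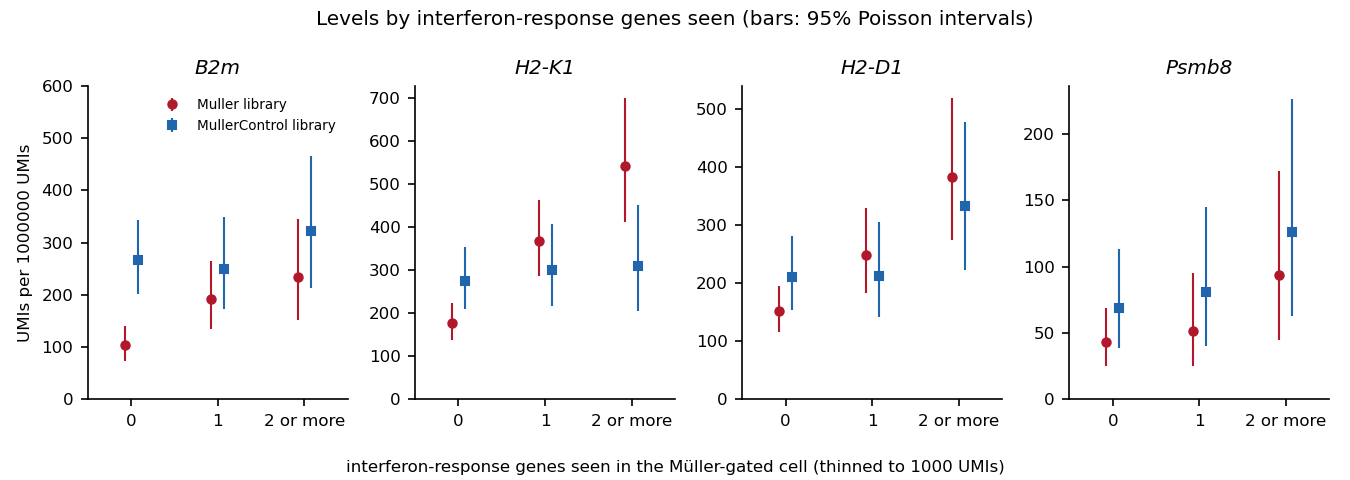
Level of B2m, H2-K1, H2-D1 and Psmb8 in CPM (linear axes from 0) in Müller-gated cells thinned to 1000 UMIs, by the number of interferon response genes seen in the cell, for the Muller (circles) and MullerControl (squares) libraries with 95% Poisson intervals. In the Muller library H2-K1 goes from 177 to 542 CPM between the outer bins and in the MullerControl library from 275 to 310 CPM.

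In microglia-gated cells, of 9 measured genes 1 was at least 1.5-fold higher in the Muller library, against a background of 12.8% of 6430 measured genes, and 1 was lower, against 7.98%. The lower one was Tap1 (log2 ratio -0.68, -2.04 to 0.30), from 9 and 34 UMIs, with 9 of 108 and 33 of 165 cells positive. At 1000 UMIs per cell it was seen in 4 of 97 cells (4.12%, 1.13 to 10.2) and 4 of 157 (2.55%, 0.698 to 6.40), so no difference was detectable at equal depth. B2m was at -0.41 (-0.53 to -0.30), H2-K1 at -0.16 and H2-D1 at 0.03 (-0.08 to 0.13). Psmb8, Psmb9, Tap2 and Tapbp lay between -0.22 and 0.14 with intervals that include 0. With cells thinned to 1000 UMIs, B2m in microglia was at -0.13 (-0.36 to 0.10). Of 21 measured regulators 2 were lower, Irf9 (-0.79, -1.88 to 0.02) and Irf8, a factor of the macrophage lineage (-0.60, -0.91 to -0.33), and 2 were higher, among them Irf3 (0.77, -0.25 to 1.73); 15 of the 21 were above 0. The interferon response list, at a median of -0.77 in Müller cells, had a median of 0.37 here, with 4 of 10 measured genes 1.5-fold higher and 0 lower; the difference between the classes was not tested. Of 7 measured class I chain genes 3 were lower, H2-Q7 (-0.94), H2-Q6 (-0.84) and H2-T22 (-0.64), and of 8 loading and trimming genes 2 were higher, the tapasin relative Tapbpl (0.84) and Erap1 (0.76), each from under 50 UMIs. None of the inducible or constitutive proteasome genes passed 1.5-fold.

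The higher one was Cd74. It stood at 258 CPM (210 to 315) in microglia of the Muller library and 54.4 CPM (39.7 to 72.8) in MullerControl microglia. With 98 and 45 UMIs this gave a log2 ratio of 2.23 (1.73 to 2.79). Müller-gated cells held no Cd74 UMI in either library, where 3 counts would be 1.51 and 1.78 CPM. With 3 counts set for the Müller gate, microglia would be 171-fold and 30.6-fold higher. Of kept Cd74 UMIs 96.1% and 91.8% were in microglia-gated cells.

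Cd74 was seen in 17 of 108 microglia (15.7%, 9.45 to 24) and 29 of 165 (17.6%, 12.1 to 24.3), and at 1000 UMIs per cell in 12.4% (6.56 to 20.6) and 2.55% (0.698 to 6.40). Rods, which should lack the gene, showed it in 1 of 4239 and 0 of 6331 cells at median depths of 1030 and 1378 UMIs, against 3565 and 4906 in microglia. Most of the UMIs came from 3 cells. In the Muller library cells with 60, 12 and 7 Cd74 UMIs held 79 of the 98, and no cell of the MullerControl library had more than 5. The same 3 cells held 48 of the 60 UMIs of the class II chain genes H2-Aa, H2-Ab1 and H2-Eb1. H2-Eb1 counted 24 UMIs against 0 in MullerControl microglia, H2-Aa had 11 and 1, and H2-Ab1 had 25 and 30. Without the cells that had 5 or more class II UMIs, the Cd74 log2 ratio was -0.06 (-0.96 to 0.70).

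These 3 cells had totals of 1248, 903 and 1038 UMIs, against a median of 3565 in their gate. They had 106, 23 and 37 UMIs of Apoe, a lipid carrier, and 0 UMIs of P2ry12 and Tmem119, genes of resident microglia. A cell with 4 Cd74 UMIs and 2742 UMIs in all also had 0 of both. The 3 cells showed 12, 5 and 14 of the 20 microglia and macrophage markers, with 1, 0 and 0 UMIs of Cx3cr1. Ms4a7, a marker on the same list, had 2, 0 and 3 UMIs in them and 0 in the cell with 4 Cd74 UMIs. How often microglia of that depth show such zeros was not computed, so the zeros are not read as an identity. The 3 cells were chosen for their Cd74 counts, so these values are a description. Ciita, the class II coactivator, had 0 UMIs in microglia of both libraries. The peptide-processing genes of the class II list, Ctss, Lgmn and Ifi30, were at 10422 and 10160 CPM, 2982 and 2523 CPM, and 530 and 396 CPM.

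**Figure D5:**
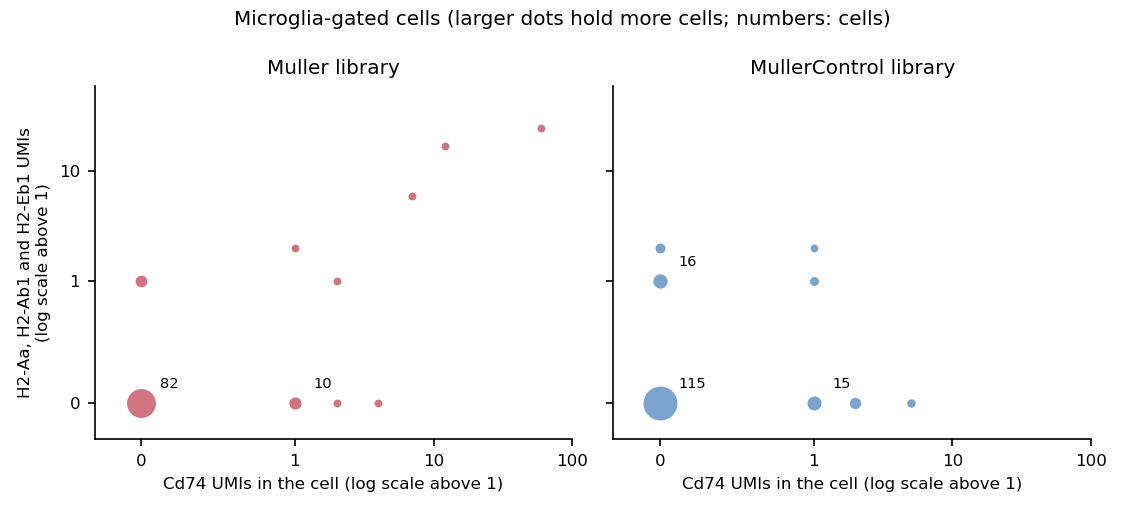
UMIs of Cd74 and of the class II chain genes H2-Aa, H2-Ab1 and H2-Eb1 in each microglia-gated cell, on axes that are logarithmic above 1, for the Muller and MullerControl libraries; larger dots hold more cells. Most cells sit at 0, and 3 cells of the Muller library with 7, 12 and 60 Cd74 UMIs stand apart at the upper right.

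Rods and bipolar cells of the Muller library carried more B2m than those of the MullerControl library. In rods 2 of 6 measured genes were at least 1.5-fold higher, B2m (log2 ratio 1.27, 0.70 to 1.86) and Psmb8 (0.87, -0.19 to 1.93), and 0 were lower, against backgrounds of 15.9% and 2.28% of 11593 genes. In bipolar cells 1 of 7 was higher, B2m (0.83, 0.04 to 1.90), and 1 lower, Tap1 (-0.75, from 16 and 10 UMIs), against 3.99% and 7.41% of 12402 genes. In rods 6 of 6 measured interferon response genes were also at least 1.5-fold higher, with a median log2 ratio of 1.72. In bipolar cells 3 of 8 were higher and 1 lower. The summed Müller markers in rods were higher too, at 995 CPM against 354 CPM, which is 3.44% and 1.02% of their level in the Müller gate. At those percentages of its own Müller level, B2m in rods would be 6.41 and 3.06 CPM, where 11.8 and 4.88 CPM were measured. For H2-D1 the same calculation gave 7.98 and 2.60 CPM against 62.7 and 52.3 CPM, and for Tapbp 1.63 and 0.737 CPM against 38.5 and 39.4 CPM. The counting interval of B2m in rods, 9.03 to 15.2 and 3.58 to 6.51 CPM, lay above these amounts in both libraries, and so did those of H2-D1 and Tapbp, by larger margins. These amounts count Müller RNA alone. C1qa in rods stood at 7.36 and 4.88 CPM, which at the microglial ratio would come with a further 1.56 and 1.47 CPM of B2m. Whether B2m in rods exceeded the Müller and microglial amounts together was not tested. In bipolar cells the calculation for B2m gave 4.16 and 3.29 CPM against 6.99 (5.38 to 8.92) and 3.70 CPM (1.97 to 6.32), and in cones 5.62 and 4.01 CPM against 6.67 (2.45 to 14.5) and 3.31 CPM (1.59 to 6.09). The interval thus held the calculated amount in cones of both libraries and in bipolar cells of MullerControl, but not in bipolar cells of Muller.

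H2-K1, H2-D1 and Psmb8 were higher in a few T or natural killer cells than in microglia. The MullerControl library held 6 cells gated as T or natural killer cells, with all 6 positive for B2m, H2-K1 and H2-D1, at 2767 (2040 to 3669), 4209 (3299 to 5292) and 4497 CPM (3555 to 5612). Psmb8 stood at 1095 CPM in them, from 19 UMIs. The Muller library held 0 such cells of 10757, which allows a share of up to 0.0279%. Endothelial cells, which line blood vessels, numbered 1 and 5, and the 5 had 1488 CPM of B2m (882 to 2352), 909 CPM of H2-K1 and 1323 CPM of H2-D1. In 7 cells gated as pericytes or smooth muscle B2m had 0 UMIs, while H2-D1 had 13.

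Among 11449 genes with at least 200 UMIs, the 5 whose log2 levels over the 12 class sums were most like those of B2m were H2-T23 (Pearson correlation 0.998), Tspan14 (0.995), Myl12a (0.993), F11r (0.992) and Selenop (0.990). Those most like Cd74 were Ccl12 (0.984), Fyb (0.968), Fcgr2b (0.967), P2ry6 (0.967) and Spi1 (0.966). Cd74 itself had 151 UMIs in kept cells. All 12 sums come from the same 2 libraries, so these values are a description. How much the 2 microglia sums weigh in them was not computed.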

How the data were processed

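Per the file headers, the deposited counts are UMI counts per gene and barcode written by Cell Ranger 4.0.0, without normalization. Seurat 4.0.5 and the builds mm10 and GRCh38 appear in the submitters' processing notes without their roles. No feature was named for the reporter or a vector. Barcodes under 300 genes or over 20% mitochondrial UMIs were dropped. Scrublet's automatic threshold called 2 and 0 doublets and so did not work; the highest-scoring 0.8% per 1000 barcodes (1130 and 866 cells) were removed. Cells were gated on 16 marker lists; Leiden clusters (scanpy 1.11.5, leidenalg 0.10.2, resolution 1) were an alternative. UMIs were summed per class and library (1987309 and 1686814 in the Müller, 379295 and 827722 in the microglia gate) and given as CPM with exact Poisson intervals; log2 ratios had 1 count added, and shares have Clopper-Pearson intervals. Intervals cover counting error only. The ratio and its interval were run on simulated Poisson counts. Those counts hold no spread between cells, mice or sorts, so this checks the calculation only.

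The members and gene lists were chosen with earlier results of these data known. From each of 7 pathway lists (79 genes found, 1 not found) and class, genes could be named from up to 4 with the largest absolute ratio and up to 3 with the highest CPM among those with at least 20 UMIs. Irf1, Rfx5, Creb1, Erap1 in Müller cells, H2-Aa and Ciita, and the marker genes, were named outside that rule, after their values were seen. One gene of the regulator list is not reported here.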

Additional observations from a re-analysis of the deposited data

Results flagged for a closer look

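B2m had ratios between the libraries whose intervals lay on opposite sides of 0 in different classes: log2 -0.69 in Müller-gated and -0.41 in microglia-gated cells, against 1.27 in rods and 0.83 in bipolar cells. H2-K1 did so as well, at -0.28 in Müller-gated and -1.16 in amacrine-gated cells (49 and 28 UMIs) against 0.41 in rods. With 1 library per group the difference between classes was not tested. Müller markers in rods stood at 995 CPM in the Muller and 354 CPM in the MullerControl library, and in bipolar cells at 646 and 380 CPM; their part in these ratios was not tested.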

How the results depend on the processing

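No paired analysis was possible because each group has 1 library, and both are numbered replicate 1. Of 228 ratios of single genes recomputed under alternatives, 208 stayed within the interval of the reported ratio, and 20 moved outside it. Settings that changed only the minimum number of UMIs left each ratio as it was, and adding 0.5 in place of 1 count moved it little. The 208 include these values, so they are not a count of independent checks. The sign differed from the reported one in 12: 8 within single clusters of the Müller gate (H2-D1 in 3, H2-K1 and Psmb8 in 2 each, Tap2 in 1) and 4 in microglia. In microglia these were H2-D1 (2) and Tap2 (1), both reported near 0, and Cd74, the only one of the 12 with a reported ratio past 1.5-fold, at -0.064 without cells with 5 or more class II UMIs. H2-K1 in the Müller gate, whose reported interval lies below 0, ranged from -0.32 to 0.46. Cd74 was also at 1.04 without its highest cell, 0.89 with at most 10% mitochondrial UMIs and 4.44 at 1000 UMIs per cell. B2m in the Müller gate stayed below 0 under all 16 alternatives, from -1.22 to -0.23. Tapbp did so under all 15 that gave a value, from -0.85 to -0.46. Both numbers include the settings that could not change a ratio, and the cause of these ranges was not tested.

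Members at least 1.5-fold lower in the Müller gate numbered 1 without cells with a microglia marker UMI and 1 without mitochondrial genes and Malat1, 4 of 7 measured at 1000 UMIs per cell, 3 of 7 within cluster 8, and 0 within cluster 5, within cluster 13 and among cells with at least 2000 UMIs. Those at least 1.5-fold higher numbered 2 within cluster 5. In the microglia gate the number higher was 0 without cells with 5 or more class II UMIs, and the number lower was 0 with classes from Leiden clusters, at 1000 UMIs per cell and with at least 50 UMIs required. The share of all measured genes past 1.5-fold was not computed under any alternative setting, so these numbers have no background beside them. The clusters, the 2000 UMI limit and the class II limit were chosen after the data were seen. With 16 and 7 UMIs in kept cells, depth allowed no ratio for Nlrc5.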
